A study of Homo sapiens with 2 samples.

Results

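The genes described are DDIT4, its paralogue DDIT4L, the sestrins SESN1, SESN2 and SESN3, and the regulators TSC1, TSC2, RHEB, DEPTOR and AKT1S1, all of which act on the kinase complex mTORC1. These 10 genes, of 19775 measured, were chosen by their role and because the measured difference of DDIT4 is one of the largest negative ones in these data. The differences of all 10 come from the comparison that chose them, so they are a description and no test is given. The study used Huh7, an established human hepatocellular carcinoma line grown in DMEM with serum and antibiotics. The knockdown cells had been stably transduced, by lentivirus, with an shRNA (short hairpin RNA) that targets the small surface glycoprotein CD24, and the control cells in the same way with a non-target hairpin. Whether the lines were clones or pools is not stated in the labels. RNA of each culture was measured on 1 Affymetrix array.

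mTORC1 is the lysosomal kinase complex that couples nutrients, oxygen and growth factors to protein synthesis and to the repression of autophagy. The small GTPase RHEB switches it on, and the TSC1-TSC2 complex switches RHEB off by promoting GTP hydrolysis. DDIT4 (also called REDD1) is induced by hypoxia, by the stress factor ATF4, by p53 and by glucocorticoids, and acts through TSC1-TSC2. The sestrins restrain mTORC1 through the GATOR complexes that control the Rag GTPases, and DEPTOR and AKT1S1 (PRAS40) bind and inhibit the complex itself. RHEB is thus the activator among the 10 and the other 9 are brakes.

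Each probe set had been centred on the mean of its log2 values on both arrays before deposit, which makes them equal in size and opposite in sign. The level of a transcript is not held, and genes cannot be ordered by abundance. The quantity given is the log2 difference, CD24 shRNA minus control, averaged over the probe sets that name only that gene. With 1 array per group there is no replicate check and no test. The SD given is over the probe sets of a gene and leaves out the spread between cultures. For scale, the pooled SD between probe sets of the same gene was 0.27 (10523 genes). In bulk RNA, fewer cells expressing a gene and less transcript per cell cannot be told apart. CD24, the target of the hairpin, lay at -0.68 in the CD24 shRNA array and 0.68 in the control array. The difference was -1.37 ± 0.38 (SD, 6 probe sets), with all 6 probe sets below 0. All 6 have names that mark that they can match more than 1 transcript. The identity of the cells could not be checked on levels. From the digits of the file, which show some probe sets to lie below a log2 value of 4 and so near the array's background, 1 of 19 probe sets of 7 liver genes (ALB, AFP, APOA1, APOB, TTR, TF and SERPINA1) was placed there. Of the markers of other cells it was 3 of 5 for PTPRC (leukocytes), 2 of 5 for PECAM1 (endothelium), 1 of 5 for COL1A1 and 0 of 3 for COL1A2 (both fibroblasts), against 25.5% of all probe sets used.

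The bases before the annotated starts of DDIT4, DDIT4L and SESN3 are shown because these are the lowest member, its paralogue, and the member with the highest probe set. Each run is the 250 bases before the start, 5′ to 3′ on the gene's strand, from RefSeq on GRCh38.p14. Capitals mark the core of the hypoxia response element, ACGTG or GCGTG, on either strand. DDIT4 lies on the plus strand at chr10:72273674-72273923, DDIT4L on the minus strand at chr4:100190469-100190718, and SESN3 on the minus strand at chr11:95232476-95232725.
DDIT4: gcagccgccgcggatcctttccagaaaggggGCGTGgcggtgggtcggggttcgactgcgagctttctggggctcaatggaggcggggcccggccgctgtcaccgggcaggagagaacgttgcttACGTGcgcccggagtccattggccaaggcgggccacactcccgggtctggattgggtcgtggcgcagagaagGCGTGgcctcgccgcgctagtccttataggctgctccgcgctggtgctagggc
DDIT4L: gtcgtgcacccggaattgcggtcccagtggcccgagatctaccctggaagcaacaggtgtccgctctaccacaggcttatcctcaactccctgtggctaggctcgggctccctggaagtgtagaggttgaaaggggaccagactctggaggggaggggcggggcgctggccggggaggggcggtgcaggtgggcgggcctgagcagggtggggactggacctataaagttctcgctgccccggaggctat
SESN3: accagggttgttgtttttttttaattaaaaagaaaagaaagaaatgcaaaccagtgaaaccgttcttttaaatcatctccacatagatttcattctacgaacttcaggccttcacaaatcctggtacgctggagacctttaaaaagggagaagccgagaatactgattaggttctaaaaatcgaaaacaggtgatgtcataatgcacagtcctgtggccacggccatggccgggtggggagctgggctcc

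DDIT4 held 3 such cores in this window, 1 of the form ACGTG at positions -125 to -121 from the start and 2 of the form GCGTG, at -219 to -215 and -53 to -49, and DDIT4L and SESN3 held none. At least 3 cores were found before 7.76% of all 35116 starts in the RefSeq table, and at least 1 before 43.2%. In these counts a site read on both strands counts as 2, so the 7.76% can include starts with fewer separate sites. ACGTG alone occurred before 18.5% and GCGTG before 32.2%. DEPTOR and AKT1S1 were not searched. Among the 8 members searched, which have 11 starts, cores were also found before RHEB, 1 start of SESN1 and 1 start of TSC2. The TSC2 core is read on both strands at overlapping positions, and the RHEB core overlaps a match of TGACG, the short form of the cyclic AMP response element. The composite site of C/EBP and ATF factors, TGATGNAA, occurred before 3.14% of all starts and, among the 8 members searched, only before that TSC2 start, where it overlaps the core. The forkhead site GTAAACA (2.98% of all starts) and the glucocorticoid receptor motif AGAACA (12.4%) matched no window of these 8 members. TGACG (21.2%) matched before SESN1, TSC1, TSC2 and RHEB, and TATAAA (10.7%) before DDIT4L alone. A match is a run of letters and no evidence of binding, and no match says nothing about a factor acting elsewhere.

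**Figure D1:**
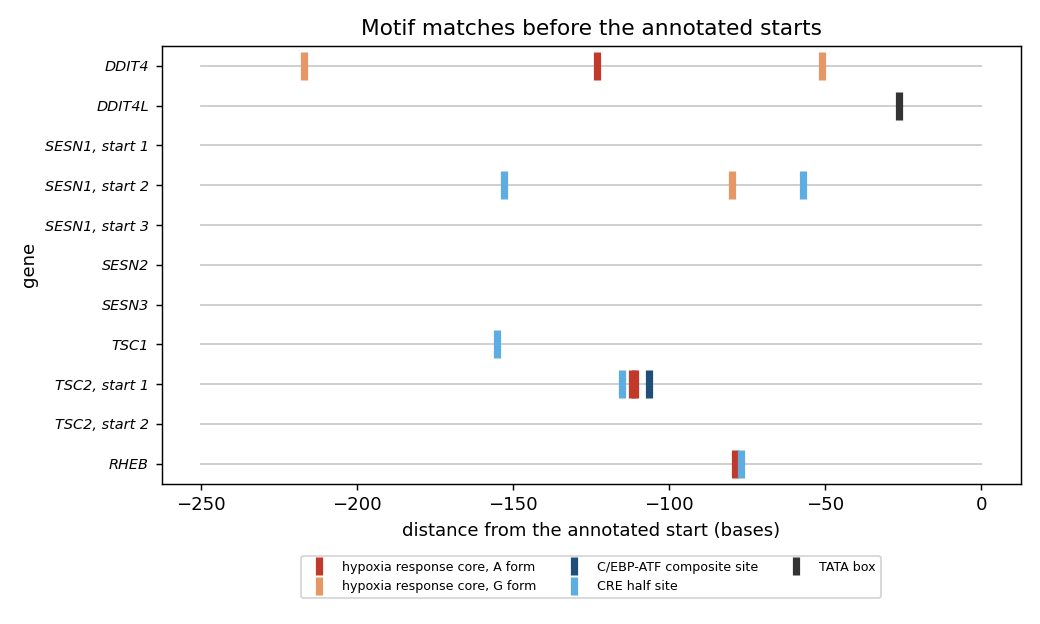
Positions of motif matches in the 250 bases before the annotated start, in bases from the start, for the 11 starts of 8 genes. Each bar is 1 match on either strand, coloured by motif. DDIT4 carries 3 hypoxia response cores, spread over the window, and DDIT4L only a TATA box.

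DDIT4 was the only 1 of the 10 genes to differ by 2-fold or more. Its centred log2 value was -1.10 in the CD24 shRNA array and 1.10 in the control array. The difference of -2.19 is 4.57-fold lower with CD24 shRNA. Only 1 of 19775 genes was lower. This value rests on 1 probe set, 202887_s_at, whose name ending marks that it can match more than 1 transcript, and which was not placed below 4 in either array. Over the array, 0.485% of genes were at least 2-fold lower and 0.632% at least 2-fold higher. Among the 9252 genes with 1 probe set, 0.659% were at least 2-fold lower. Since DDIT4 was picked for its low value, nothing is read from its count against these shares. The genes nearest to DDIT4 in the order of differences, by the gap between gene values on this pair of arrays, were ITIH3 at -2.06, THBS4 at -2.02 and PLA1A at -1.97 above it, and SLC6A14, an amino acid transporter, at -2.56 below it. ITIH3 encodes a plasma inter-alpha-trypsin inhibitor chain, THBS4 a matrix thrombospondin and PLA1A a phospholipase. All 4 rest on 1 probe set each.

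DDIT4L (REDD2), which also inhibits mTORC1 when expressed, lay on the other side of 0. Its centred value was 0.10 in the CD24 shRNA array and -0.10 in the control array, a difference of 0.20 on 1 probe set, smaller than the pooled SD. That probe set was placed below 4. The paralogues thus lay on opposite sides of 0, with DDIT4L measured near the background of the array.

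**Figure D2:**
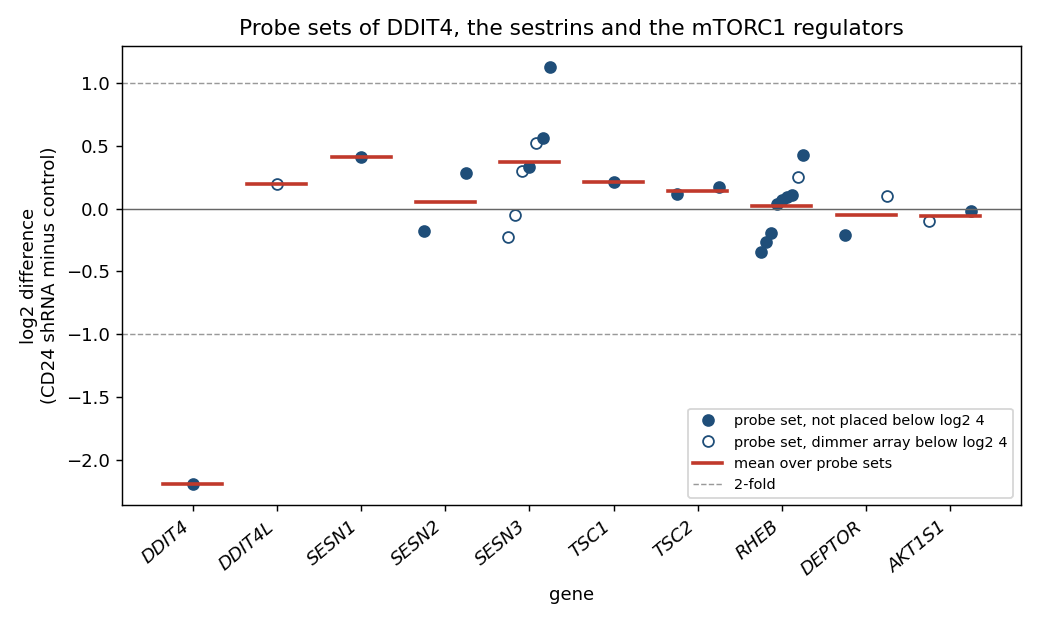
Log2 difference (CD24 shRNA minus control) of each of the 28 probe sets of the 10 genes; open circles are the 8 probe sets whose dimmer array was placed below a log2 value of 4, red bars are gene means and dashed lines 2-fold. DDIT4 lies at -2.19, every other gene mean between -0.06 and 0.41, and the probe sets of SESN3 spread from -0.23 to 1.13.

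The sestrins held the 2 highest values of the group. SESN1, a p53 target, lay at 0.21 in the CD24 shRNA array and -0.21 in the control array, a difference of 0.41 (1.33-fold higher) on 1 probe set, with 5.65% of genes higher. That probe set is also of the kind that can match several transcripts. SESN3, a FOXO target, averaged 0.18 in the CD24 shRNA array and -0.18 in the control array, a difference of 0.37 ± 0.44 (SD, 7 probe sets), with 5 above and 2 below 0 and 7.20% of genes higher. The SD over the probe sets of SESN3 is larger than its mean. SESN2, a leucine sensor that ATF4 and p53 induce, lay at 0.03 in the CD24 shRNA array and -0.03 in the control array. Its probe sets were on opposite sides at -0.18 and 0.28, so no direction can be given for it.

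The 7 SESN3 probe sets differed with their place near the background. The 3 that were not placed below 4 lay at 0.33, 0.56 and 1.13, with a mean of 0.67. The 4 placed below 4 lay at -0.23, -0.05, 0.30 and 0.52, with a mean of 0.14. Without the 4 dim probe sets the SESN3 value was therefore 0.67 in place of 0.37, still under 2-fold. The probe sets at 0.33 and 1.13 were built on the same sequence accession and still differed by 0.80. The higher of these, 235683_at, is the only probe set of the 28 besides that of DDIT4 to pass 2-fold. SESN1 and SESN3 were thus on the other side of 0 from DDIT4, and SESN2 was not placed on either side.

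TSC1 and TSC2, the complex through which DDIT4 acts, were slightly positive. TSC1, the scaffold subunit, lay at 0.11 in the CD24 shRNA array and -0.11 in the control array, a difference of 0.21 on 1 probe set. TSC2, the GTPase-activating subunit, lay at 0.07 in the CD24 shRNA array and -0.07 in the control array, a difference of 0.14 ± 0.04 (SD, 2 probe sets, at 0.12 and 0.17). Both are within the pooled SD. RHEB, their target, averaged 0.01 in the CD24 shRNA array and -0.01 in the control array, a difference of 0.02 ± 0.25 (SD, 9 probe sets), with 6 probe sets above and 3 below 0. The RHEB probe sets parted by the kind of name: the 5 that can match several transcripts were all above 0, at 0.04, 0.07, 0.09, 0.11 and 0.25, the last of them placed below 4, whereas 3 of the other 4 were below 0, at -0.35, -0.26 and -0.20, and 1 was at 0.42. The mean of these 4 was -0.10, and the mean of the 5 was 0.11.

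The inhibitors that bind the complex differed by less than the pooled SD. DEPTOR lay at -0.03 in the CD24 shRNA array and 0.03 in the control array, a difference of -0.05 ± 0.22 (SD, 2 probe sets), with probe sets at -0.21 and 0.10, the second of them placed below 4. AKT1S1 lay at -0.03 in the CD24 shRNA array and 0.03 in the control array, a difference of -0.06 ± 0.05 (SD, 2 probe sets), with probe sets at -0.10, placed below 4, and -0.02.

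Ordered by difference, the genes ran from DDIT4 over AKT1S1, DEPTOR, RHEB, SESN2, TSC2, DDIT4L, TSC1 and SESN3 to SESN1. The gap between DDIT4 and AKT1S1 was 2.13, whereas all other neighbours were at most 0.16 apart, less than the pooled SD. The median over the 10 was 0.10, against 0 over all genes, with 7 genes above and 3 below 0, against 49.4% of all genes above and 47.5% below. Of the 28 probe sets, 18 were above and 10 below 0. RHEB alone holds 9 of the 28 and SESN3 holds 7, and the share over all probe sets is not given. At the lower threshold of 1.5-fold no further member was added, where 2.38% of all genes were lower and 2.63% higher.

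**Figure D3:**
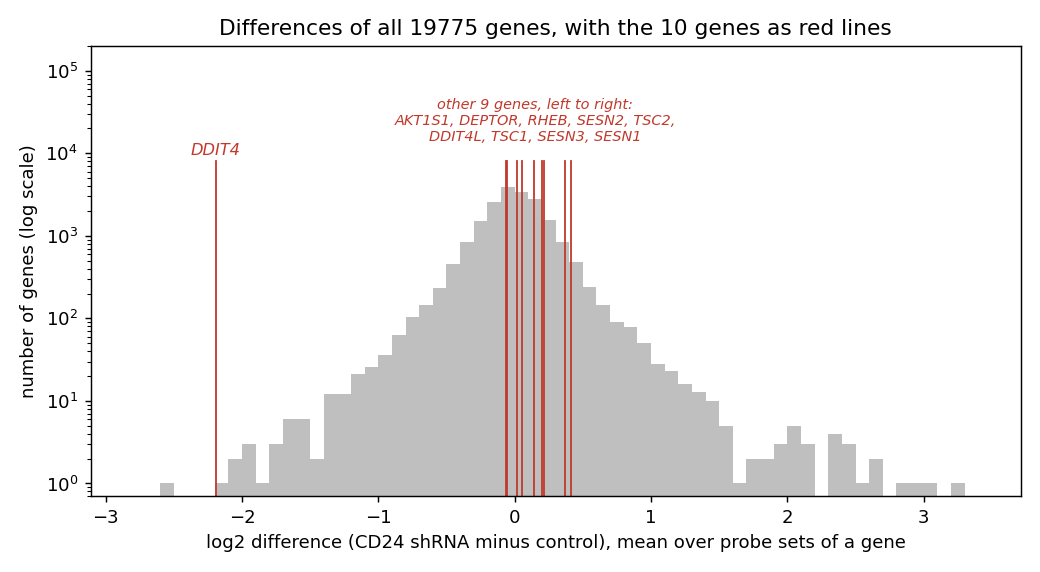
Histogram of the log2 differences (CD24 shRNA minus control) of all 19775 genes, with the number of genes on a log axis and the 10 genes as red lines. DDIT4 stands in the far left tail, and the other 9 lie between -0.06 and 0.41 in the bulk of the distribution.

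The direction of the small differences depends on how the arrays are scaled. Scaling on the 18 hybridisation control probe sets added 0.11 to every difference, which moved DEPTOR to 0.06 and AKT1S1 to 0.05, so that 9 of the 10 genes were then above 0 and DDIT4 remained at -2.08. The median of all genes, 0 as deposited, moved up by the same 0.11. The distance of each member from that median did not change. With that scaling 67 genes were at least 2-fold lower and 181 at least 2-fold higher, against 96 lower and 125 higher as deposited.

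No gene differed by 2-fold in the lists of complex subunits, inputs, sensors and effectors of mTORC1. Over all genes 0.485% were at least 2-fold lower and 0.632% at least 2-fold higher, so a count of 0 in lists of this size is near that share. For the sign counts of all lists that follow, 49.4% of all genes were above and 47.5% below 0. Of 9 mTOR complex subunits and assembly factors, 6 were above and 3 below 0 (median 0.07). The lowest was TTI1, an assembly factor, at -0.31 on 1 probe set. The highest was MAPKAP1, the mTORC2 subunit SIN1, at 0.49 ± 0.39 (SD, 4 probe sets). Of 10 measured genes listed as growth factor and PI3K-AKT input, 7 were above 0 (median 0.13). The list includes TBC1D7, a further subunit of the TSC1-TSC2 complex and so not an input gene. TBC1D7 lay at 0.42 on 2 probe sets and is named after its value was seen. IRS2, the insulin receptor substrate of liver, was 1.74-fold higher (0.80 ± 0.16, SD, 2 probe sets), and PIK3R1, the PI3K regulatory subunit, 1.48-fold lower (-0.56 ± 0.17, SD, 3 probe sets). These were the 2 largest differences of that list and ran in opposite directions.

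Nutrient and energy sensing genes lay on both sides of 0. Of 10 AMPK and LKB1 genes, 6 were below 0 (median -0.08), with PRKAB2, an AMPK beta subunit, at -0.35 ± 0.15 (SD, 3 probe sets) and PRKAG2, a gamma subunit, at 0.25 ± 0.38 (SD, 5 probe sets). Of 12 Rag and Ragulator genes, 7 were below 0 (median -0.04). RRAGD, a Rag GTPase, was 1.60-fold lower (-0.68 ± 0.21, SD, 2 probe sets) and the only gene of that list past 1.5-fold. RRAGB followed at -0.32 on 1 probe set. Over all genes 2.38% were at least 1.5-fold lower. Of 14 GATOR, KICSTOR and sensor genes, 8 were below and 5 above 0 (median -0.06). DEPDC5, a GATOR1 subunit, lay at 0.32 and WDR24, a GATOR2 subunit, at -0.31, each on 1 probe set. The medians of these 3 lists turned positive with the scaling on hybridisation controls, which moves the median of all genes up by the same 0.11.

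The substrates and effectors of mTORC1, measured here as transcripts and not as phosphorylated proteins, had a median of 0.03 over 15 genes, with 10 above and 5 below 0. EIF4B, a translation initiation factor, lay at -0.43 ± 0.07 (SD, 3 probe sets) and ULK1, the kinase that starts autophagy, at 0.43 on 1 probe set. The kinase activity of mTORC1 was not measured.

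The next lists hold transcription factors upstream of DDIT4 and the sestrins, targets of such factors, and binding and turnover partners. Of 12 transcription factors upstream of DDIT4 and the sestrins, 7 were above and 5 below 0 and none passed 1.5-fold (median 0.03), with CEBPB at -0.42 and ATF4 itself at -0.35, each on 1 probe set. Over all genes 2.38% were at least 1.5-fold lower and 2.63% at least 1.5-fold higher. The hypoxia factors HIF1A and EPAS1, named after their values were seen, both lay at 0.32, on 1 and 3 probe sets. Hypoxia-inducible genes had the lowest median of the 13 lists, -0.31 against 0 for all genes. Of 19 such genes, 14 were below 0 and 5 above, where 47.5% of all genes were below and 49.4% above. At 2-fold 3 were lower and 0 higher, where 0.485% of all genes were lower and 0.632% higher, and at 1.5-fold 4 were lower and 3 higher, where 2.38% of all genes were lower and 2.63% higher. PFKFB4, a regulator of glycolysis, was 2.18-fold lower on probe sets that disagreed (-1.97 and -0.28), BNIP3, a mitophagy receptor and itself an inhibitor of RHEB, 2.16-fold lower (-1.11 ± 0.08, SD, 2 probe sets), and ALDOC, a glycolytic aldolase, lay at -1.04. Others lay above 0: ADM, adrenomedullin, lay at 0.96, EGLN3, an oxygen-sensing hydroxylase, at 0.71 and PFKFB3 at 0.67. ALDOC, ADM, EGLN3 and PFKFB3 are named after their values were seen. Of these, ALDOC, ADM and PFKFB3 rest on 1 probe set each.

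Of 15 ATF4 targets, 10 were below 0 (median -0.22), against 47.5% of all genes. CEBPB and DDIT3 stand both in this list and in that of the upstream factors. No ATF4 target reached 2-fold, where 0.485% of all genes were lower and 0.632% higher. At 1.5-fold 3 were lower and 3 higher, where 2.38% of all genes were lower and 2.63% higher. The largest differences were positive: SLC7A5, the light chain of the leucine transporter that feeds mTORC1, was 1.90-fold higher and VLDLR, a lipoprotein receptor, 1.85-fold higher. Both rest on 1 probe set each. SLC3A2, the heavy chain that pairs with SLC7A5, lay at 0.70 on 1 probe set. TRIB3, STC2 and SLC7A11 lay at -0.62, -0.67 and -0.68. SLC3A2, TRIB3, STC2 and SLC7A11 are named after their values were seen. The ATF4 targets thus lay on both sides.

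Of 14 p53 targets, 9 were below 0 (median -0.11), against 47.5% of all genes. GADD45A, a DNA damage response gene, lay at 1.00, the only gene of that list past 2-fold. DRAM1, a lysosomal regulator of autophagy, was 1.80-fold lower. Both rest on 1 probe set each. Over all genes 0.632% were at least 2-fold higher. At 1.5-fold 1 p53 target was lower and 2 were higher, where 2.38% of all genes were lower and 2.63% higher. Of 9 glucocorticoid receptor targets, 5 were above and 4 below 0 (median 0.04), with DUSP1, a MAP kinase phosphatase, at 0.68 ± 0.39 (SD, 3 probe sets) and KLF9 at -0.42 ± 0.46 (SD, 5 probe sets, 3 placed below 4). The 10 FOXO targets were split evenly, 5 on each side (median -0.02). PCK1, a gluconeogenic enzyme, was 1.87-fold lower on 1 probe set, and IRS2, which this list shares, was higher. Among 11 binding and turnover partners of DDIT4, the sestrins and DEPTOR none passed 1.5-fold (median -0.03), where 2.38% of all genes were lower and 2.63% higher. TXNIP, a redox protein that binds DDIT4, lay at -0.41 ± 0.33 (SD, 3 probe sets) and CUL1, a ubiquitin ligase scaffold, at 0.15 ± 0.12 (SD, 2 probe sets). Over the 7 alternatives in combining, leaving out and scaling probe sets, the median of the hypoxia-inducible genes ranged from -0.49 to -0.20 and that of the ATF4 targets from -0.39 to -0.11. The scaling on hybridisation controls gave the values nearest 0, which were -0.20 for hypoxia-inducible genes, -0.11 for ATF4 targets and -0.0028 for p53 targets. That scaling adds the same 0.11 to all genes, so the distance of each list median from the median of all genes did not change. The part of hypoxia, ATF4 or p53 signalling in the DDIT4 value was not tested.

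**Figure D4:**
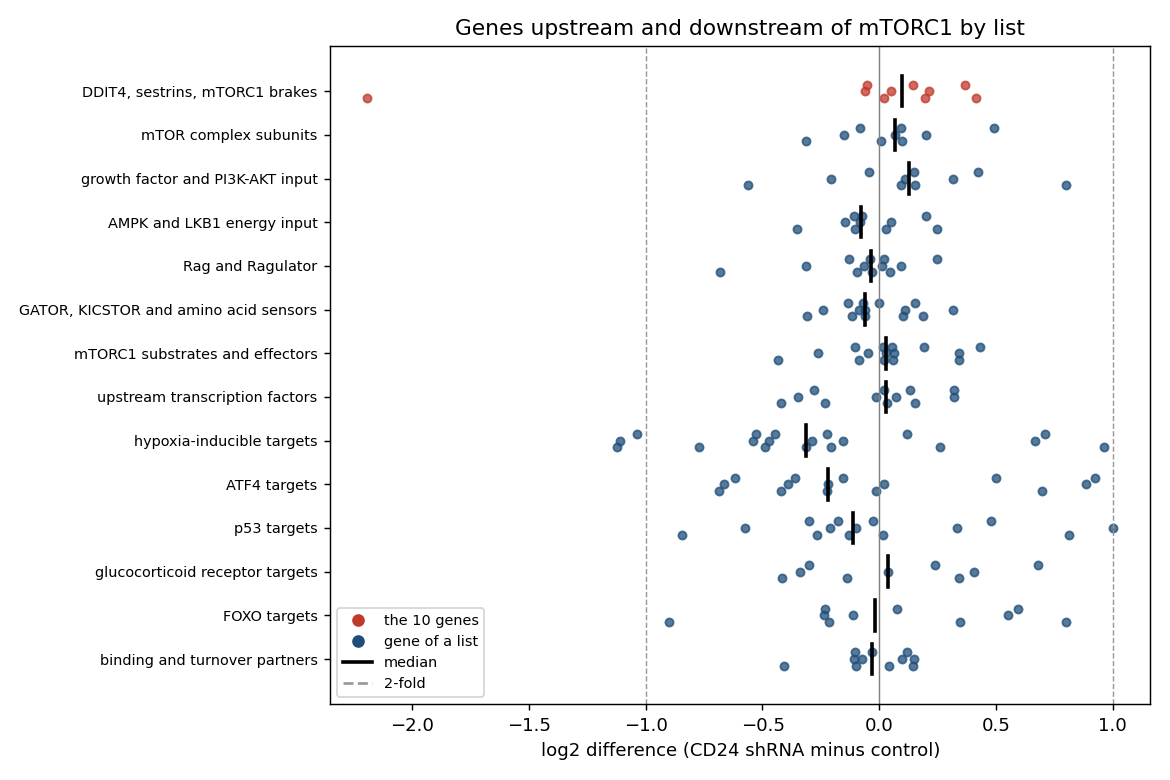
Log2 differences (CD24 shRNA minus control) of the 10 genes in red and of 13 lists of pathway and inducer genes in blue; each point is a gene, black bars are medians and dashed lines mark 2-fold. DDIT4 lies apart at -2.19, and the lowest list median is that of the hypoxia-inducible genes at -0.31.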

How the data were processed

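Expression of 2 Huh7 samples was measured on 1 array each. The values are log2 values that the authors deposited after RMA (background correction, quantile normalisation and probe set summary), per the submitters' processing notes. The software and the centring of each probe set are not stated there. The sums of both arrays are 0 within 1e-06.

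Of 54675 probe sets, 41091 named 1 gene, 1801 several and 11777 none here. The 62 array controls were left out of those naming 1 gene, and most of them are counted among the 1801 and 11777. Names came from GEO's platform annotation, of which 41037 matched RefSeq by Entrez ID with 0 renamed. No probe set naming several genes named a member. Gene values are means over probe sets (Python 3.11.15, pandas 2.3.3, numpy 2.4.6). A probe set was placed below 4 where its digits are too fine for a single-precision number of 4 or more. This finds only part of the dim probe sets, 10474 of those used.

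The members and the 13 lists were chosen with earlier results of these data known. Of 171 list genes 157 were measured. Named genes are the members, CD24, the nearest 3 on either side of DDIT4 (1 existed below) and the 2 largest differences of each list, except where stated. Called means past the stated fold. The calculation was tested on simulated data. Alternatives were other ways to combine or leave out probe sets, to centre or scale, and other thresholds. The number of arrays limits the precision.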

Additional observations from a re-analysis of the deposited data

How the results depend on the processing

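DDIT4 has 1 probe set, so the alternatives that combine or leave out probe sets return -2.19 or no value by construction, as does centring on a median that is already 0. Only the scaling on hybridisation controls could move it, to -2.08, and the alternatives say nothing about its stability. Leaving out probe sets that can match several transcripts removes its only probe set, and with it SESN1 and SESN2, so that 0 members were then at least 2-fold lower. Taking the probe set with the largest difference for each gene gave 1 member at least 2-fold higher, SESN3 at 1.13, with 209 genes lower and 303 higher over the array. At a threshold of 1.5-fold 470 genes were lower and 521 higher, and at 3-fold 17 and 32, with DDIT4 the only member called at either. The median of the members ranged from 0.05 to 0.21. Leaving out the probe sets placed below 4 removed DDIT4L and put RHEB at -0.01 and DEPTOR at -0.21. The medians of 7 lists changed sign under at least 1 alternative: AMPK, Rag and Ragulator, GATOR, upstream transcription factors, glucocorticoid receptor targets, FOXO targets and binding partners. Leaving out each probe set in turn changed the sign of SESN2 (-0.18 to 0.28), DEPTOR (-0.21 to 0.10) and RHEB (-0.03 to 0.07), and kept that of SESN3 (0.24 to 0.47), TSC2 and AKT1S1. Genes with 1 probe set and the centring cannot move by construction in the same way, and the scaling shift of 0.11 is smaller than the pooled SD of 0.27, so values that did not move under these are no sign of stability. With 1 array per group, none of this covers the spread between cultures, and 4 of the 10 genes rest on 1 probe set.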
